A study of Arabidopsis thaliana with 2 samples.

Results

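Tetraspanins are small proteins of the plasma membrane and of endosomes, each crossing the membrane several times and exposing a large loop to the outside. They associate with one another and with other membrane proteins to form local membrane domains. In Arabidopsis, members of the family are known from leaf and root growth, from plasmodesmata, from extracellular vesicles and from gametes. Their transcripts are described here in the stem, in wild type and in plants expressing the CCCH zinc finger protein AtC3H14 from the 35S promoter, a plant virus promoter that drives high expression in most tissues. The tetraspanin genes taken were TET2, TET3, TET5, TET6, TET7, TET8, TET9 and TET10, each read by a probe set that the platform annotation assigns to that gene alone. These are 8 genes of the 13356 that a probe set names alone, and 8 probe sets of the 22746 that are not controls.

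The data came from Affymetrix ATH1 GeneChips, on which a set of short oligonucleotides (a probe set) reads each transcript, with 1 array of wild type and 1 of 35S::AtC3H14. Both samples were of the Columbia (Col-0) background and 30 days old, kept on soil at 23 °C under 16 h of light and 8 h of dark. The tissue was stem from the base to internode 3, and 10 ug of total RNA was labelled for each array. The number of plants pooled, the number of transgenic lines and the stage of the stems are not stated in the labels. Values are MAS5 signals, an intensity per probe set on a linear scale, and ratios are 35S::AtC3H14 over wild type. Low signals are marked by a floor of 104.0, which is the 40th percentile over both arrays without controls. Where 1 of the 2 signals lay below it the ratio is given as a bound against the floor, and where both did no ratio is given. There were no replicates, so no difference below was set against variation between plants, and no test was made. In bulk stem, fewer cells of a type and less RNA per cell cannot be told apart.

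The genotype label was checked on AtC3H14 itself (AT1G66810), which read 244 in wild type and 8655 in the overexpressor, a 35.5-fold difference. Whether the probe set tells transgene from native transcripts is not stated in the sources used here. The labelled tissue was checked on markers of the stem. All 6 named genes of the secondary wall and xylem list were above the floor on both arrays, among them IRX15-L, which acts in xylan synthesis, at 3912 and 3732. The 3 named pollen and anther genes, AGL66 and the tetraspanin genes TET11 and TET12, were below it on both, the brightest at 20.8 in wild type and 13.0 in the overexpressor. The 1 named root gene, the beta-glucosidase gene PYK10, read 614 in wild type and 56.4 in the overexpressor. Unlike the pollen and anther genes it was thus above the floor in wild type, at 5.90 times it, and below it in the overexpressor. The cause was not tested.

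Of the 8 tetraspanin genes, 7 reached the floor in both genotypes and TET9 in wild type alone. TET3 was the member past 2-fold, 2.50-fold lower in the overexpressor. TET5 was 1.89-fold below wild type and TET7 1.54-fold above it. TET2, TET10, TET6 and TET8 had ratios within 1.23-fold of wild type in either direction. The plot of signals by array shows all 8 with the floor.

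**Figure D1:**
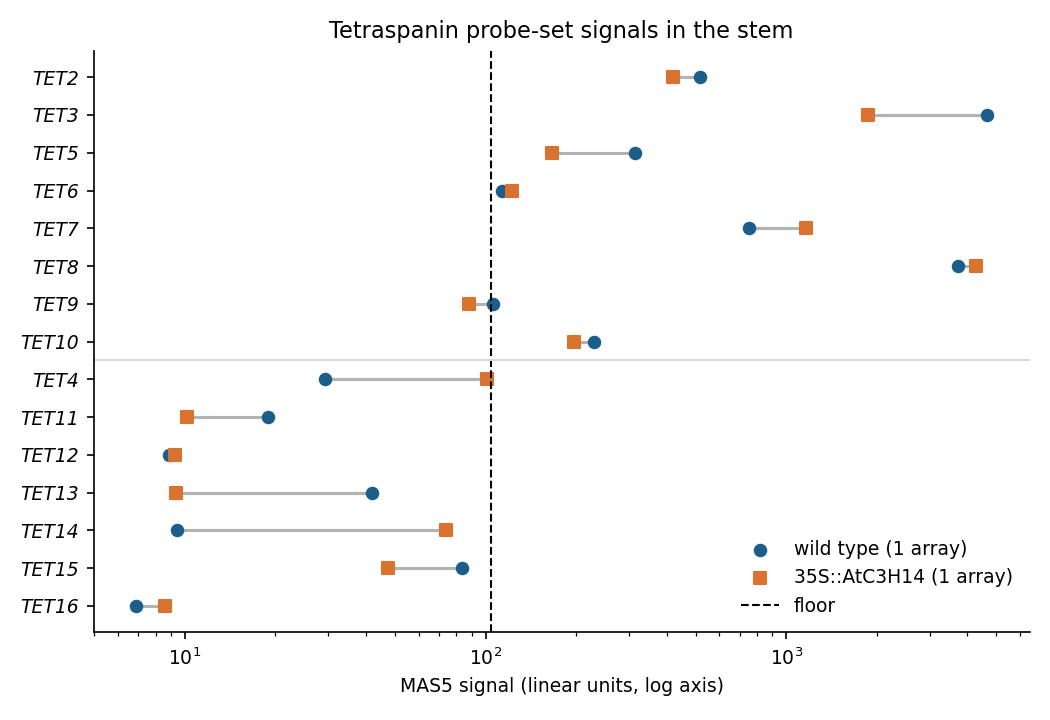
MAS5 signal (log axis) of each tetraspanin probe set on the wild-type array (circles) and the 35S::AtC3H14 array (squares), joined by a line, with the floor of 104.0 dashed. The 8 genes described here are above the horizontal line and the 7 other tetraspanin genes with a probe set of their own are below it; TET3 has the widest gap of the 8, and all 7 of the others lie below the floor on both arrays.

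TET3 (AT3G45600, probe set 252591_at) is known from the proteome of plasmodesmata, the channels that join neighbouring plant cells. It read 4664 in wild type and 1866 in the overexpressor, a log2 ratio of -1.32. Both signals lay far above the floor, at 44.8 and 17.9 times it, so the size of this difference does not rest on how low signals are treated. Of all 12826 probe sets that reached the floor in both genotypes (called measured below), 2.68% had a log2 ratio as low or lower. Among the 961 of them within 0.5 log2 of TET3 in mean signal, 3.54% did. In the TAIR10.1 gene table the span of TET3 overlaps that of its neighbour SEN1 by 100 bases. Which part of the transcript the probe set reads is not stated in the sources used here.

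TET8 (AT2G23810, probe set 267293_at) and TET9 (AT4G30430, probe set 253632_at) are known from extracellular vesicles, which carry small RNAs out of the plant cell. TET8 read 3738 in wild type and 4271 in the overexpressor, a log2 ratio of 0.19. That is 1.14-fold, and 38.1% of the measured probe sets had a ratio as high or higher. TET9 read 106 in wild type and 88.3 in the overexpressor, so the overexpressor signal was below the floor. The bound is at least 1.02-fold lower, which leaves the size of any TET9 difference unmeasured. TET8 and TET3, both far above the floor on both arrays, differed from each other by 1.51 in log2 ratio, or 2.86-fold. This gap does not change with any common scaling of an array. It ranged from 1.46 with a pseudocount of 100 to 1.52 with loess normalization.

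TET5 (AT4G23410, probe set 254258_at) and TET6 (AT3G12090, probe set 256273_at) are close relatives known to act redundantly in restraining leaf and root growth. TET5 read 315 in wild type and 167 in the overexpressor, 53.0% of wild type and a log2 ratio of -0.92. Its place relative to 2-fold depended on the scaling. With each array centred on its median, and also with quantile normalization, the log2 ratio was -1.02, and with scaling to the spiked hybridization controls it was -1.44. With the floor at the 60th percentile, 308, TET5 had a bound of -0.03. TET6 read 113 in wild type and 122 in the overexpressor, a log2 ratio of 0.10. Both TET6 signals were within 1.17 times the floor, and its sign turned with median centring (-0.0018), quantile normalization (-0.07) and hybridization-control scaling (-0.40, a bound). The log2 ratios of TET6 and TET5 differed by 1.02 as deposited and by 0.69 with the pseudocount.

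TET7 (AT4G28050, probe set 253855_at) was the member with the highest ratio. It read 754 in wild type and 1164 in the overexpressor, 154% of wild type and a log2 ratio of 0.63. Of the measured probe sets, 13.0% had a ratio as high or higher, and of the 2602 within 0.5 log2 of TET7 in mean signal, 10.8% did. The direction was above wild type under every alternative run, but with hybridization-control scaling the log2 ratio was 0.10. TET7 and TET3, picked as the highest and lowest of the 7 measured members, differed by 1.95 in log2 ratio, or 3.86-fold. Under the alternatives they differed by 1.84 to 1.96, and a common scaling of an array cannot change this gap. The SD of the log2 ratio over all measured probe sets was 0.64. The TET7 gene span overlaps that of its neighbour UMAMIT33 by 180 bases in the gene table. The spans of TET9 and TET6 also overlap a neighbour there, UMAMIT34 by 132 bases and emb2738 by 14 bases.

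TET2 (AT2G19580, probe set 265935_at) read 517 in wild type and 422 in the overexpressor, a log2 ratio of -0.29. TET10 (AT1G63260, probe set 260109_at) read 229 in wild type and 197 in the overexpressor, a log2 ratio of -0.22. TET2 was below wild type under every alternative run, and TET10 under each that gave it a ratio. Both TET10 signals lay below the higher floor, 308, so it had no ratio there. The lowest values came under hybridization-control scaling, -0.82 for TET2 and -0.74 for TET10. No ratio of either gene passed 2-fold.

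A spread within these arrays came from genes with more than 1 probe set, pooled over 59 genes with 121 probe sets in all, which had an SD of 0.35 on the log2 scale. Variation from plant to plant, or from one extraction or hybridization to the next, is not part of it.

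As deposited, the tetraspanins lay on both sides of wild type. Of the 7 measured on both arrays, 3 were above wild type and 4 below. With median centring or quantile normalization 2 were above and 5 below, and with hybridization-control scaling 1 (TET7) was above and 5 below. Of the 7 as deposited, 0 passed 2-fold upward and 1 downward. Across the array 10.1% of measured probe sets were past 2-fold, 4.51% higher and 5.61% lower, so the 1 of 7 is near the background. At 1.5-fold, 1 member was higher (TET7) and 2 lower (TET3 and TET5), against 28.6% of all measured probe sets in either direction, 14.5% higher and 14.1% lower. At 3-fold there was 0, against 2.68%. The median log2 ratio of the 8 genes, with TET9 at its bound, was -0.12, against 0.05 for all probe sets treated the same way. The SD of the log2 ratio was 0.67 over the 7 measured genes and 0.64 over all 12826 measured probe sets. The share of higher probe sets among those past 2-fold rested on scaling. It was 44.6% as deposited, 34.0% with median centring and 8.81% with hybridization-control scaling, which moves the median of all probe sets to -0.44. With that last scaling TET8 also turned, to -0.33.

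**Figure D2:**
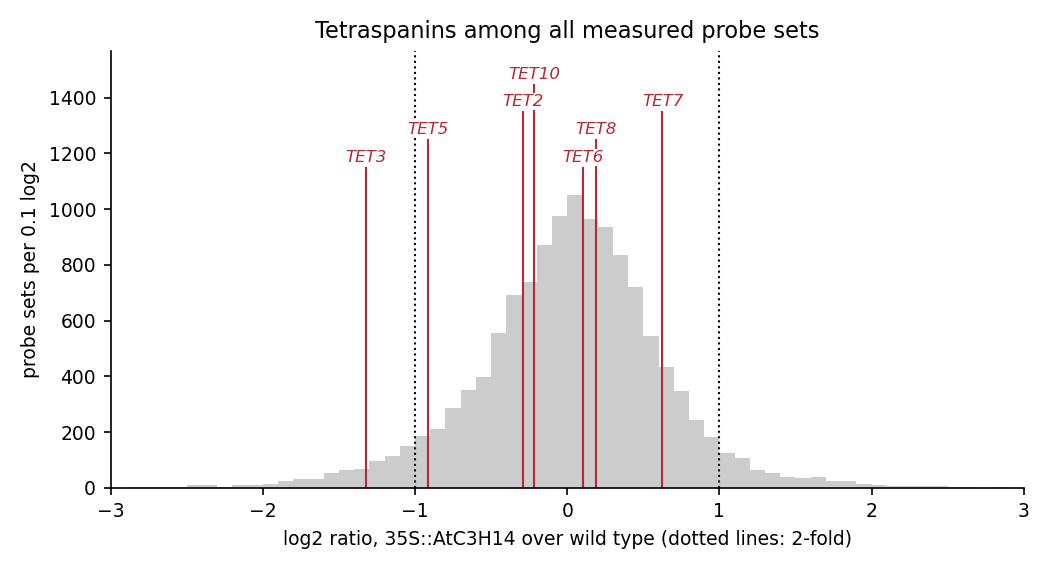
Histogram of the log2 ratio (35S::AtC3H14 over wild type) of the 12826 measured probe sets, in steps of 0.1, with the 7 measured tetraspanin genes as labelled lines and 2-fold as dotted lines; the far tails run beyond the axis. TET3 at -1.32 lies outside the dotted lines, TET5 at -0.92 just inside, and the other 5 spread through the body of the distribution.

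The ratios of the 8 genes under each way of processing are plotted together. The order of TET3, TET2, TET8 and TET7, from lowest to highest, was the same under each of them. Scaling to the hybridization controls lowered by 0.52 each ratio that stayed above the floor on both arrays. The other settings moved TET3 no further than from -1.43 to -1.28.

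**Figure D3:**
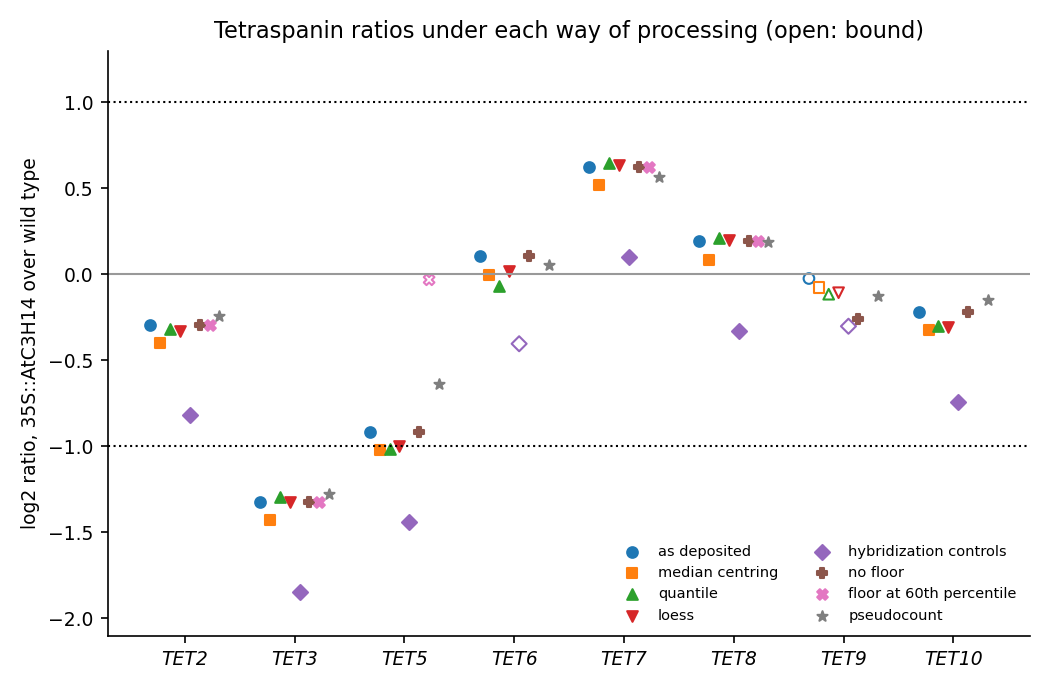
Log2 ratio (35S::AtC3H14 over wild type) of each tetraspanin gene under 8 ways of processing, one marker per way, with open markers for bounds against the floor and dotted lines at 2-fold. TET6, TET9 and TET10 have no marker for the higher floor, since both their signals lie below it. TET3 lies below the lower dotted line under all 8, TET5 on either side of it, and no gene reaches the upper line.

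The family has 17 genes in Arabidopsis as listed here. Of the other 9, TET4 and TET11 to TET16 had a probe set of their own, and 2, TRN2 (also TET1) and TET17, had no probe set naming that gene alone. All 7 were below the floor on both arrays, with signals from 6.88 to 83.6 in wild type and from 8.61 to 101 in the overexpressor. TET4 came nearest to the floor, at 29.2 in wild type and 101 in the overexpressor. TET11 and TET12, which are known from sperm cells, read 18.9 and 8.86 in wild type and 10.2 and 9.27 in the overexpressor. No ratio is given for any of these 7, since signals below the floor have no reliable order. Ratios of tetraspanin genes could thus be had for the 7 measured genes and, as a bound, for TET9.

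Lists of proteins that share membranes with tetraspanins were read as well. Of 17 entries for extracellular vesicles and endosomes, ARA6, a Rab GTPase of endosomes, had a named probe set of its own and read 2246 in wild type and 2003 in the overexpressor, a log2 ratio of -0.17. The lists for plasmodesmata (12 entries) and membrane microdomains (9 entries) held 0 genes with both a listed name that the gene table carries and a probe set of their own. These 3 lists also hold 9 loci, 3, 1 and 5 in that order, that have a probe set of their own but no such name, and they are given by locus code without a role. Of the 9, AT3G13560 of the plasmodesmata list was above wild type with a log2 ratio of 1.03, and AT5G51570 of the microdomain list was below it with -1.33. Of the other 7, 6 lay under 2-fold and AT5G64870 had a bound of 0.66 above wild type, which leaves its size open. TRN1, which acts with TRN2, had no probe set naming it alone.

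Markers of stem tissues differed beside TET3. The phloem and cambium list had 3 genes of 4 entries with a probe set of their own, and all 3 were at least 2-fold lower in the overexpressor. Across all 12826 measured probe sets, 5.61% were at least 2-fold lower. The list was chosen with earlier results of these data known. SWEET11, a sucrose exporter of phloem loading, had a log2 ratio of -3.71. CLE44, a peptide precursor that maintains the cambium, had -1.89. PHV, which is in the list as a vascular patterning gene, had -1.01. PHV lay under 2-fold with quantile normalization (-0.995) and with the pseudocount (-0.87). Under the higher floor, 308, 2 of the 3 were past 2-fold and the list median was -1.01. The 3 together read 6793 in wild type and 1007 in the overexpressor, with a median log2 ratio of -1.89. SUC2, the other entry, had no probe set naming it alone. TET3, at -1.32, was lower as well. These 2 bulk arrays do not show which cells of the stem hold TET3 transcripts, and any part of phloem or cambium cells in its value was not tested. Of the 7 measured tetraspanin genes, 4, TET3 among them, were below wild type and 3 above. The 6 named genes of the secondary wall and xylem list together read 22357 in wild type and 19701 in the overexpressor. Their median log2 ratio was -0.26, with 0 past 2-fold as deposited and 1, lower, with hybridization-control scaling. They ranged from -0.77 (CCR2) to 0.31 (COB). AT5G61840, a locus of that list whose listed name the gene table does not carry, had a log2 ratio of 0.22. It was left out of this median, which it would raise. The 3 green tissue genes had a median of 0.04 (-0.06 with median centring and -0.48 with hybridization-control scaling) and together read 38276 and 36622. WSD1, the 1 epidermal gene with a probe set of its own, was at least 4.48-fold higher, from 11.3 to 466.

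**Figure D4:**
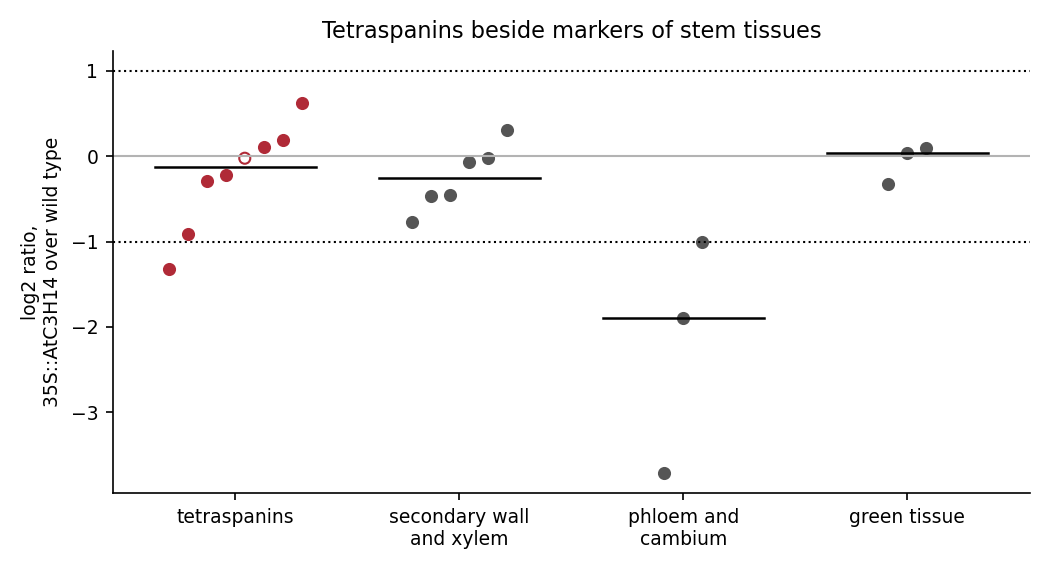
Log2 ratio (35S::AtC3H14 over wild type) of the 8 tetraspanin genes (TET9 open, at its bound) beside the named measured genes of the secondary wall and xylem, phloem and cambium, and green tissue lists, one point per gene, with a bar at each median and dotted lines at 2-fold. All 3 genes of the phloem and cambium list lie below the lower dotted line (PHV at -1.01 just below it), while the tetraspanins spread from -1.32 to 0.63 around a median of -0.12.

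With 2 arrays, likeness of pattern can be measured by the ratio alone. Among genes with a symbol, measured on both arrays and with a mean signal not under the overall median, the 3 nearest to TET3 in log2 ratio were CCT2 (-1.32), HOS3-1 (-1.33) and EXLA1 (-1.33). EXLA1, an expansin-like gene, read 7495 in wild type and 2974 in the overexpressor. CCT2 read 350 and 140, and HOS3-1 350 and 139.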

How the data were processed

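Signals were deposited as linear MAS5 intensity values, 1 per probe set and array, per the submitters' processing notes, which give no version. The 2% trimmed mean was 500.04 on each array, which hides any change common to all transcripts. Of 22810 probe sets, 64 controls were set apart. Names came from the platform annotation and the TAIR10.1 gene table. No source used here names the build of the array design, and coordinates were left out. The members and lists were chosen with earlier results of these data known. Log2 ratios, floor, bounds and counts were computed with Python 3.11.15 and pandas 2.3.3, loess (span 0.4) with statsmodels 0.14.6, and the ratio and loess steps were tested on simulated data. Of 76 list entries 37 had a probe set of their own. The 12 whose listed name the gene table does not carry were left out of the list counts; the 2 past 2-fold belong to the plasmodesmata and microdomain lists. Named were all members, AtC3H14, the 3 genes nearest in ratio to the most changed member, and up to 4 genes a list. A comparison of protein sequences, planned, was not made.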

Additional observations from a re-analysis of the deposited data

How the results depend on the processing

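Each group had 1 array, so leaving out replicates was not possible, and the number of arrays limits the precision. No paired analysis was possible because each group has 1 sample. All alternatives were listed with earlier results of these data known. The count of tetraspanin genes past 2-fold, 1 as deposited, was 2 with median centring, with quantile normalization and with hybridization-control scaling (TET3 and TET5, both lower), 3 at 1.5-fold and 0 at 3-fold. It was 1 with loess, where TET5 stood just short of 2-fold, with no floor, with the higher floor (60th percentile), with the pseudocount and without _s_at and _x_at probe sets. The median log2 ratio of the family, -0.12, was -0.57 with hybridization-control scaling and otherwise lay within 0.35 of the deposited value. Of all probe sets, 1299 were past 2-fold as deposited (579 higher and 720 lower), 2350 with hybridization-control scaling (207 and 2143), 5837 with no floor (3428 and 2409) and 690 with the higher floor (261 and 429), 3668 at 1.5-fold and 344 at 3-fold. Of 61 ratios of single tetraspanin genes under alternatives, 53 lay within 0.35 of the deposited value and 8 moved further, 7 with hybridization-control scaling and 1, TET5, with the higher floor. The sign of the ratio differed from the deposited one in 4, which were 3 of TET6 and 1 of TET8. Part of the 53 could not move, so their number is no measure of steadiness. No member has an _s_at or _x_at probe set, so leaving those out changed no member. Taking the floor away leaves every measured ratio as it was. The higher floor does the same for TET2, TET3, TET7 and TET8. Median centring shifts all measured members by the same amount. The 18 hybridization-control probe sets averaged 1.44-fold more signal on the array of the overexpressor, and the cause was not tested. Their single log2 shifts ran from 0.22 to 0.81, with a mean of 0.52.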
